A study of Mus musculus with 12 samples.

Results

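The IL-6, oncostatin and IL-31 receptor family was followed here through 9 genes, found by their symbols in a table of 56691 genes: the ligands Il6, Il11, Lif and Osm and the receptor chains Il6ra, Il6st, Lifr, Osmr and Il31ra. RNA was sequenced from the ears of wild-type mice in 12 libraries. The 4 IsoL libraries came from ears given isoliensinine, a plant alkaloid, the 4 Model libraries from ears given MC903, a vitamin D analogue that brings on a dermatitis resembling atopic dermatitis, and the 4 Blank libraries from untreated ears. The strain, age, doses and days of sampling, and whether IsoL ears also received MC903, are not stated in the labels. The Blank ears are labelled as untreated, with no vehicle named, so effects of the application and of MC903 cannot be told apart. The series calls the replicates biological, but no label ties a library to an animal, so p-values measure the spread between libraries.

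The family shares gp130, the signalling chain encoded by Il6st. IL-6 binds the IL-6 receptor encoded by Il6ra and then gp130, LIF joins LIFR to gp130, and oncostatin M in mice signals mainly through OSMR with gp130. IL-31 is the exception: its receptor pairs the IL31RA chain with OSMR and holds no gp130. The chains carry JAK kinases, which phosphorylate STAT3 above all, and SOCS3 ends the signal by binding gp130. In skin, oncostatin M acts on keratinocytes and fibroblasts, and IL-31 is known as a cytokine of itch that acts on sensory neurons.

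Libraries held 13884927 to 18771831 counts. Values below are FPKM, counts scaled to the depth of the library and to the total exonic length of the gene. The order of genes by FPKM thus depends on that annotated length, which need not be the length of the transcripts present. All 9 members passed the low-value filter, which asked for 4 libraries with FPKM of at least 1. Lif and Il31ra passed it through the 4 Model libraries alone, and Il11 through the Model libraries and 2 IsoL libraries. The tissue was checked by markers: Krt5, Krt14, Krt10 and Krt1 of keratinocytes, Col1a1 of fibroblasts, Col2a1 of cartilage and Acta1 of skeletal muscle had counts in all 3 groups.

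In the mouse genome 6 of the members lie in pairs, with 1 gene wholly between Osm and Lif and 1 between Osmr and Lifr. On chromosome 11, Osm (ENSMUSG00000058755, 4186420 to 4191026) lies 16.5 kb before Lif (ENSMUSG00000034394, 4207557 to 4222514), both on the plus strand. On chromosome 13, Il6st (ENSMUSG00000021756, 112600604 to 112646620, plus strand) and Il31ra (ENSMUSG00000050377, 112656432 to 112730894, minus strand) point towards each other across 9.81 kb. On chromosome 15, Osmr (ENSMUSG00000022146, 6843058 to 6904450, minus strand) and Lifr (ENSMUSG00000054263, 7120095 to 7226970, plus strand) point away from each other across 216 kb. Il6 (ENSMUSG00000025746) is on chromosome 5 at 30218112 to 30224979, Il6ra (ENSMUSG00000027947) on chromosome 3 at 89771366 to 89820503, and Il11 (ENSMUSG00000004371) on chromosome 7 at 4775372 to 4785858. These coordinates are those of the deposited table, whose genome build the labels do not state.

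Promoters of 4 members are shown. The first pair, Il6 and Lif, are among the 4 ligands that rose in the Model ears. The second pair are Osmr and Lifr, which lie near each other and whose levels went opposite ways there. Each promoter runs from 250 bases before to 50 after the RefSeq start site, 5′ to 3′ on the gene's own strand, in build GRCm38.p6. Capitals mark matches, on either strand, to the AP-1 motif TGANTCA and to the kappaB motif; the STAT motif TTCNNNGAA was also searched. The Il6 and Lif promoters are at chr5:30012864-30013163 and chr11:4257318-4257617 on the plus strand. Those of Osmr and of the upstream start of Lifr are at chr15:6874264-6874563 on the minus strand and chr15:7129322-7129621 on the plus strand.
Il6: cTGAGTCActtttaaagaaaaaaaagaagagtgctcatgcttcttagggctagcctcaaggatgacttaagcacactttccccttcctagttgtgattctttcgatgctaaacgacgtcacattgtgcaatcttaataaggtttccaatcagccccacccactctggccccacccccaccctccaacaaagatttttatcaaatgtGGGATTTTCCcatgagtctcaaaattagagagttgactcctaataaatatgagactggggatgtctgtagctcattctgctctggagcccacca
Lif: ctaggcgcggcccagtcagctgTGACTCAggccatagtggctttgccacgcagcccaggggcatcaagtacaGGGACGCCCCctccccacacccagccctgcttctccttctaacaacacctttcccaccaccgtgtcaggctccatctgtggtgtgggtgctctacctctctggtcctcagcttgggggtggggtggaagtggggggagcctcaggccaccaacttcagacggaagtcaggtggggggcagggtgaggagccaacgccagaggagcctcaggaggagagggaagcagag
Osmr: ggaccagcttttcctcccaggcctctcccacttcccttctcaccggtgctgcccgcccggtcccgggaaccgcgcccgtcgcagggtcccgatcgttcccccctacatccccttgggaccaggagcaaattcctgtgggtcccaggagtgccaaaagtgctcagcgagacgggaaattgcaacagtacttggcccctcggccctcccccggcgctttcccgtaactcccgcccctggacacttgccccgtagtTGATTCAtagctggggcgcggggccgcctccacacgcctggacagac
Lifr: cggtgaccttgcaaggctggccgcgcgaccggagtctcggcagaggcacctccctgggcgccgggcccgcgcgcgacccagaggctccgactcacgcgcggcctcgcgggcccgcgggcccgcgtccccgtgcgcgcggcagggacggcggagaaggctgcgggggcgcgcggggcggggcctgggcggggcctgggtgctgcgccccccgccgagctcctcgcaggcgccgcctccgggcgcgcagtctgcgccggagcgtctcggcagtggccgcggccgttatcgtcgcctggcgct
In Il6 the AP-1 match began 249 bases and the kappaB match 44 bases before the start site, and in Lif they began 228 and 178 bases before it. Osmr held an AP-1 match just after its start site, and Lifr held no match in this window. Among all 10 promoters listed for 8 members, the others with a match were a downstream start of Il11 (AP-1, 98 bases before it) and Il31ra (STAT, 191 bases before it). Il6 and Lif were thus the only members with both an AP-1 and a kappaB match, and Osm had no promoter entry. Of 32851 mouse promoters of the same length, 7.81% held the AP-1 motif, 8.46% the kappaB motif and 8.30% the STAT motif. A match is a description of the letters and was not tested as a binding site.

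Model ears were set against Blank ears to ask how the family differs in MC903 dermatitis. All 4 ligands rose, most of all Osm and Il6, while the receptor chains divided: Osmr, Il6st and Il31ra rose, and Il6ra and Lifr fell. That is 7 members higher and 2 lower at an adjusted p under 0.05 by edgeR's quasi-likelihood test, where 35.3% of the 15403 genes tested rose and 34.9% fell. Of the 7, Osm, Il6, Il11, Lif and Il31ra reached the filter in no Blank library and entered the test through groups where they were high, so the count is no independent support for them. The members' median log2 fold change was 1.44, against -0.01 over all genes tested. No member had overlapping FPKM ranges in the Model and Blank libraries, which held for 69.5% of all genes. Of all genes 70.1% were called in either direction. With a log2 change of 1 or more also required, 5 members were higher (Osm, Il6, Il11, Lif and Osmr) and none was lower, where 14.0% of all genes were higher and 7.17% lower. The median, the lack of overlap and this last count include genes that entered through groups where they were high. They are thus no independent support for those genes either.

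Osm encodes oncostatin M, a cytokine made by neutrophils, macrophages and T cells. It had 71.93, 62.03, 67.47 and 70.64 FPKM in the Model libraries, against 0.31, 0.30, 0.11 and 0.11 FPKM in the Blank libraries. In counts, the Model libraries held 2269 to 2462 Osm reads each and the Blank libraries 4 to 12. Osm was thus barely detected in untreated ears and had the highest FPKM of the 9 genes in the Model ears. Il6st, with an annotated length of 11099 bases against 2272 for Osm, held more reads there, 8582 to 10515 per library. The fold change was 8.46 ± 0.18 on the log2 scale (SE, adjusted p = 1.07e-20 by edgeR), a 352-fold rise, which was number 38 of the 15403 genes in order of rise.

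Il6 encodes interleukin-6, an inducible cytokine of many cell types. It had 12.87, 12.20, 10.18 and 13.56 FPKM in the Model libraries, against 0.02, 0.15, 0.13 and 0.10 FPKM in the Blank libraries. The Blank libraries held 16 Il6 reads in all, and the Model libraries held 1824. Its rise was 7.01 ± 0.20 on the log2 scale (adjusted p = 2.15e-18 by edgeR), or 129-fold.

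Il11 encodes interleukin-11, which acts on stromal cells through its own receptor chain and gp130. It had 2.39, 2.96, 2.95 and 2.91 FPKM in the Model libraries, against 0.45, 0.47, 0.61 and 0.60 FPKM in the Blank libraries, a 5.78-fold rise (log2 2.53 ± 0.23, adjusted p = 1.29e-09 by edgeR). Lif, leukaemia inhibitory factor, had 1.19, 1.12, 1.08 and 1.05 FPKM in the Model libraries, against 0.15, 0.20, 0.38 and 0.36 FPKM in the Blank libraries. The Lif rise was 4.52-fold (log2 2.18 ± 0.22, adjusted p = 9.24e-09 by edgeR). Both stayed at low levels: in the Model ears Lif and Il11 were the lowest of the ligands, at 1.11 ± 0.0606 and 2.80 ± 0.276 FPKM (SD, n = 4).

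**Figure D1:**
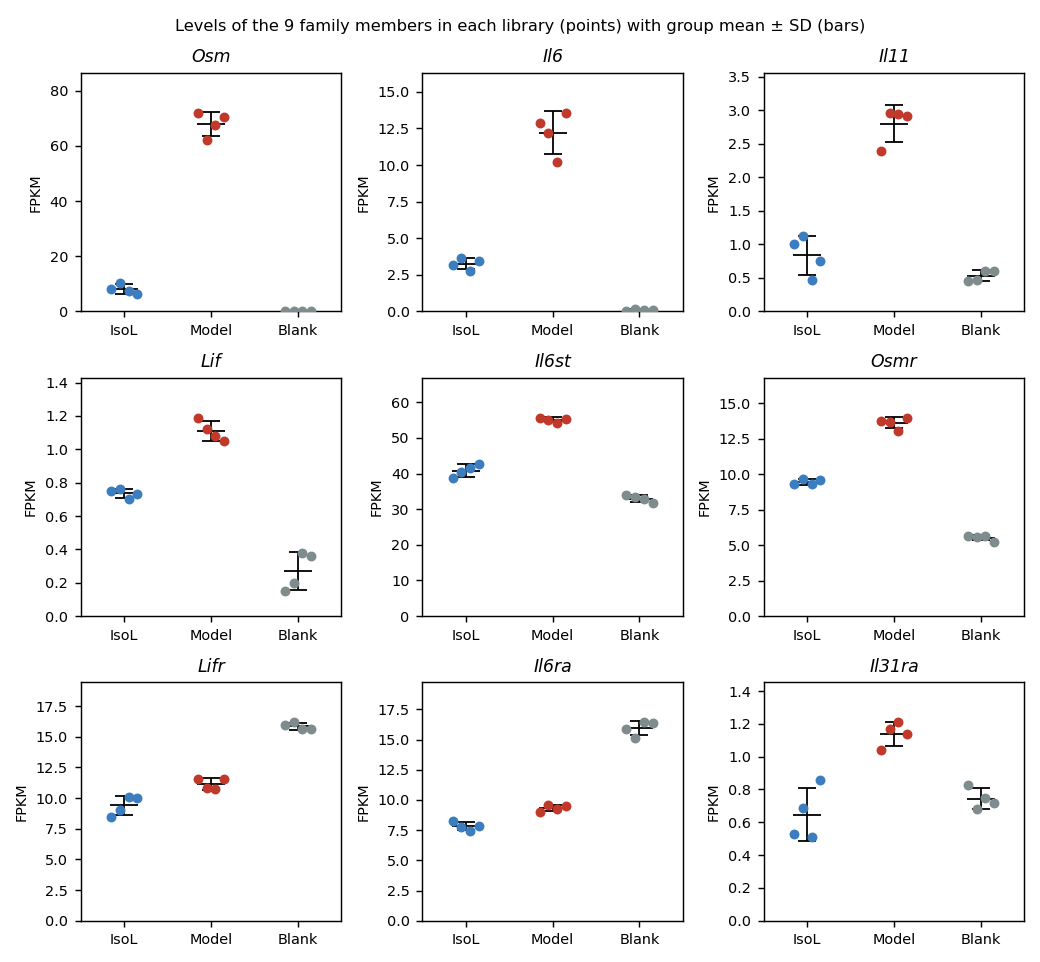
FPKM of the 9 members in each library (points) with the group mean ± SD (bars, n = 4), each panel on its own linear axis from 0, with IsoL, Model and Blank from left to right. Osm, Il6, Il11, Lif, Osmr, Il6st and Il31ra are highest in the Model libraries, and Il6ra and Lifr are highest in the Blank libraries.

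Among the receptor chains, Osmr, a chain of the receptors of both oncostatin M and IL-31, showed the largest rise. It had 13.73, 13.70, 13.07 and 13.99 FPKM in the Model libraries, against 5.62, 5.60, 5.66 and 5.25 FPKM in the Blank libraries. Every Model value was more than 2 times every Blank value, and the fitted rise was 2.71-fold (log2 1.44 ± 0.05, adjusted p = 1.37e-17 by edgeR).

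Il6st, the shared gp130 chain, was the most abundant receptor chain in all 3 groups. Its FPKM was 55.69, 55.04, 54.09 and 55.37 in the Model libraries, against 33.95, 33.28, 32.85 and 31.80 in the Blank libraries, a 1.84-fold rise (log2 0.88 ± 0.04, adjusted p = 5.29e-14 by edgeR). Il31ra, the IL-31-binding chain, was scarce everywhere. Its FPKM was 1.04, 1.17, 1.21 and 1.14 in the Model libraries, against 0.83, 0.68, 0.75 and 0.72 in the Blank libraries, a 1.68-fold rise (log2 0.75 ± 0.16, adjusted p = 0.000222 by edgeR). The gene Gm3226 overlaps Il31ra on the same strand and held 123 reads over the 12 libraries, so a part of the reads of this locus may be split between them.

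Il6ra and Lifr went the other way. Il6ra had 9.01, 9.60, 9.27 and 9.53 FPKM in the Model libraries, against 15.88, 15.17, 16.44 and 16.37 FPKM in the Blank libraries, and was thus 1.55-fold lower (log2 -0.63 ± 0.05, adjusted p = 1.44e-10 by edgeR). The gene Gm42809, with 35 reads over the 12 libraries, overlaps it on the opposite strand, and no label states whether the counting used strand. Lifr had 11.59, 10.79, 10.74 and 11.52 FPKM in the Model libraries, against 15.96, 16.19, 15.60 and 15.62 FPKM in the Blank libraries. Lifr was 1.29-fold lower (log2 -0.37 ± 0.05, adjusted p = 1.40e-06 by edgeR). Scaling moves such small changes: without scaling factors the median change of all genes was -0.15, and 38.9% of the called genes were higher in the Model ears, against 50.3% with TMM scaling; with quantile scaling the median was -0.19 and the share 36.5%. Both genes were also lower in every other scaling run, and the 7 that rose were also higher.

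Markers of immune cells rose alongside the ligands. All 7 neutrophil markers rose, and their summed level was 3317 to 3644 CPM in the Model libraries, against 49.2 to 94.5 CPM in the Blank libraries, where Ly6g had no reads. S100a9 and S100a8 made up most of the Model sum, with means of 1750 and 1039 CPM, so it mainly follows these genes. All 6 monocyte and macrophage markers rose as well, with sums of 1987 to 2153 CPM in the Model libraries, against 250.004 to 263 CPM in the Blank libraries. Of 4 tested T cell markers 3 rose, and Cd3e was not called (log2 0.10 ± 0.19, adjusted p = 0.645 by edgeR). The sums over all 5 listed, with the untested one included, were 35.4 to 43.9 CPM in the Model libraries, against 9.58 to 10.1 CPM in the Blank libraries. Cd4 alone averaged 26.2 CPM in the Model libraries. Of the 4 keratinocyte markers Krt14 and Krt1 rose and Krt5 and Krt10 fell, and their sums were 10688 to 13051 CPM in the Model libraries, against 15001 to 16036 CPM in the Blank libraries. Endothelial markers rose in 4 of 4, with sums of 453 to 475 CPM in the Model libraries, against 134 to 146 CPM in the Blank libraries. Mast cell and basophil markers rose in 5 of 5, with sums of 159 to 181 CPM in the Model libraries, against 61.2 to 74.7 CPM in the Blank libraries. Fibroblast markers rose in 3 of 4, with sums of 4173 to 4411 CPM in the Model libraries, against 3572 to 3844 CPM in the Blank libraries. The 2 receptor genes that fell did so beside lower sums of cartilage markers (457 to 505 CPM in the Model libraries, against 812 to 875 CPM in the Blank libraries), of skeletal muscle markers (779 to 948 CPM in the Model libraries, against 1683 to 1833 CPM in the Blank libraries) and of nerve and Schwann cell markers (145 to 152 CPM in the Model libraries, against 291 to 319.9 CPM in the Blank libraries). Among these markers Ly6g, Retnlg, Csf3r, Cd4, Trac and Mcpt8 reached the filter in no Blank library. The marker counts are thus no independent support for them. The part of these shifts in the levels of the family was not tested, and in whole ear more cells of a type and more RNA per cell cannot be told apart.

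**Figure D2:**
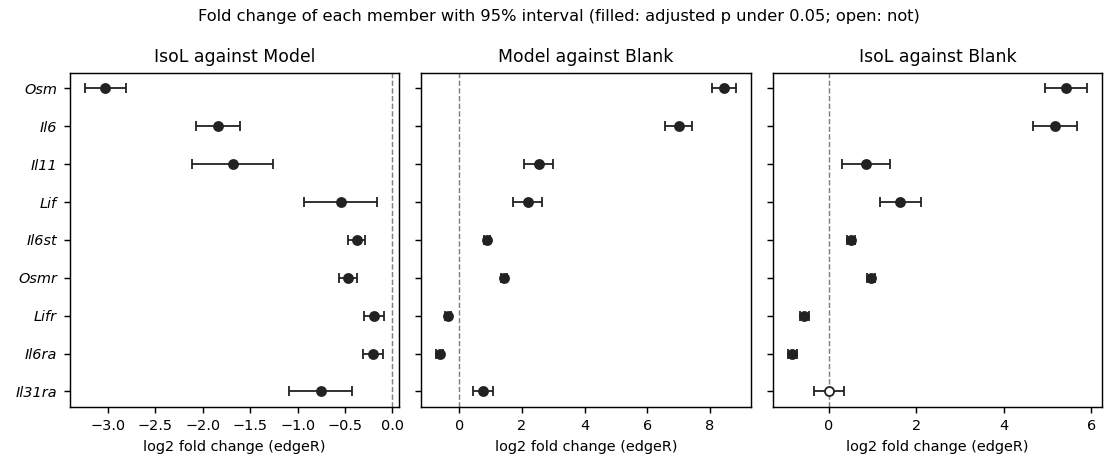
Fitted log2 fold change of each member with its 95% interval in the 3 comparisons, each with its own horizontal axis; filled points passed an adjusted p under 0.05 and the open point did not. All 9 points lie left of 0 in IsoL against Model, and Il31ra in IsoL against Blank is the open point, at -0.01.

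IsoL ears were set against Model ears to ask how the family differs in the isoliensinine group. All 9 members were lower in the IsoL ears, the ligands Osm, Il6 and Il11 by the most. By edgeR 9 were called lower and none higher, where 25.1% of all genes fell and 24.1% rose, and the members' median log2 change was -0.54 against 0.01 over all genes. The groups' FPKM did not overlap for any of the 9, as for 42.6% of all genes. Of all genes 49.3% were called in either direction. With a log2 change of 1 or more required, 3 members were lower (Osm, Il6 and Il11), where 5.76% of all genes were lower and 2.34% higher. Of the called genes 49.0% were higher with TMM scaling, 39.3% without scaling factors and 57.9% with quantile scaling, and the 9 members were called lower in all 3. Lif and Il31ra entered the test through their Model levels alone, and Il11 could not have entered without its Model levels. The counts, the median and the lack of overlap are thus no independent support for these genes. Without the filter 9 members were also called lower.

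Osm again moved most. It had 8.23, 10.48, 7.26 and 6.20 FPKM in the IsoL libraries, against 62.03 to 71.93 FPKM in the Model libraries, and fell 8.14-fold (log2 -3.03 ± 0.10, adjusted p = 2.92e-16 by edgeR). It was number 83 of the 15403 genes in order of fall. Il6 had 3.20, 3.64, 2.77 and 3.48 FPKM in the IsoL libraries, against 10.18 to 13.56 FPKM in the Model libraries, and was 3.58-fold lower (log2 -1.84 ± 0.11, adjusted p = 5.31e-12 by edgeR). For both genes the highest IsoL library stayed far below the lowest Model library.

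Il11 had 1.0, 1.12, 0.47 and 0.75 FPKM in the IsoL libraries, against 2.39 to 2.96 FPKM in the Model libraries, a 3.22-fold fall (log2 -1.69 ± 0.21, adjusted p = 4.45e-07 by edgeR). Its IsoL libraries spread widely, with 16 to 41 reads each. Lif had 0.75, 0.76, 0.70 and 0.73 FPKM in the IsoL libraries, against 1.05 to 1.19 FPKM in the Model libraries. The Lif fall was 1.46-fold (log2 -0.54 ± 0.19, adjusted p = 0.0191 by edgeR). It was not called by limma-trend on log2(FPKM + 0.1) (-0.53, adjusted p = 0.0738), and its adjusted p ran from 0.00464 to 0.0738 over the alternatives.

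The receptor chains fell by less. Osmr had 9.29, 9.67, 9.31 and 9.58 FPKM in the IsoL libraries, against 13.07 to 13.99 FPKM in the Model libraries, and was 1.39-fold lower (log2 -0.47 ± 0.04, adjusted p = 7.38e-09 by edgeR). Il6st had 38.69, 40.35, 41.43 and 42.77 FPKM in the IsoL libraries, against 54.09 to 55.69 FPKM in the Model libraries (log2 -0.38 ± 0.04, adjusted p = 1.97e-07 by edgeR). Both lay between the Model and Blank levels, with no overlap with either.

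Il31ra had 0.53, 0.69, 0.51 and 0.86 FPKM in the IsoL libraries, against 1.04 to 1.21 FPKM in the Model libraries, and was 1.69-fold lower (log2 -0.76 ± 0.16, adjusted p = 0.000375 by edgeR). Il6ra had 8.22, 7.75, 7.44 and 7.87 FPKM in the IsoL libraries, against 9.01 to 9.60 FPKM in the Model libraries (log2 -0.20 ± 0.05, adjusted p = 0.00214). Lifr had 8.47, 9.05, 10.09 and 10.02 FPKM in the IsoL libraries, against 10.74 to 11.59 FPKM in the Model libraries (log2 -0.19 ± 0.05, adjusted p = 0.00387). These 2 genes were thus lower in the Model than in the Blank ears and lower still in the IsoL ears.

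Neutrophil markers fell with the ligands, 7 of 7, with sums of 439.9 to 581 CPM in the IsoL libraries, against 3317 to 3644 CPM in the Model libraries. S100a9 and S100a8 again made up most of the IsoL sum, with means of 219 and 149 CPM. Monocyte and macrophage markers fell in 6 of 6, with sums of 935 to 1114 CPM in the IsoL libraries, against 1987 to 2153 CPM in the Model libraries. Keratinocyte markers rose in 4 of 4, with sums of 23366 to 26895 CPM against 10688 to 13051 CPM. Of 4 tested T cell markers 2 fell, and of 5 mast cell and basophil markers 1 fell. Of 3 cartilage markers 1 rose, of 3 skeletal muscle markers 2 rose, and of 4 nerve and Schwann cell markers 2 rose. None of these markers was called lower, while Il6ra and Lifr fell further. Endothelial markers fell in 4 of 4 and fibroblast markers in 4 of 4, with fibroblast sums of 3289 to 3714 CPM in the IsoL libraries, against 4173 to 4411 CPM in the Model libraries. Ly6g passed the filter through the Model libraries alone, so the neutrophil count is no independent support for it. The part of these shifts in the family's values was not tested.

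IsoL ears were also set against Blank ears. In this set of 9 genes the shares called in either direction and without overlap were somewhat above those of all genes. Osm and Il6 had the largest differences. By edgeR 6 members were higher and 2 lower, where 36.5% of all genes rose and 34.0% fell, and the FPKM of 7 did not overlap, as for 66.1% of all genes. Of all genes 70.5% were called in either direction. With a log2 change of 1 or more required, 3 members were higher (Osm, Il6 and Lif) and none lower, where 11.6% of all genes were higher and 6.11% lower. The members' median log2 change was 0.85, against 0.02 over all genes. Osm, Il6, Il11, Lif and Il31ra reached the filter in no Blank library, so these values are no independent support for them. Of the called genes 51.8% were higher with TMM scaling, 35.9% without scaling factors and 42.0% with quantile scaling; the 8 called members were also called in the same direction without scaling factors. This comparison shares its Blank libraries with the first and its IsoL libraries with the second, so the 3 sets of values are not independent.

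Osm was 43.2-fold higher in the IsoL than in the Blank ears (log2 5.43 ± 0.23, adjusted p = 4.15e-15 by edgeR), and Il6 was 36.0-fold higher (log2 5.17 ± 0.25, adjusted p = 2.81e-14). Lif was 3.10-fold higher (log2 1.63 ± 0.23) and Osmr 1.95-fold higher (log2 0.97 ± 0.05). Il6st rose by 0.50 ± 0.04 on the log2 scale, whereas Il6ra fell by 0.84 ± 0.05 and Lifr fell by 0.56 ± 0.05; the adjusted p of these 5 genes lay between 3.07e-14 and 1.34e-06. Il11 had 0.47 to 1.12 FPKM in the IsoL libraries, against 0.45 to 0.61 FPKM in the Blank libraries. The groups overlapped, and although Il11 was called (log2 0.85 ± 0.26, adjusted p = 0.00636 by edgeR), it was not with quantile scaling (0.43, adjusted p = 0.176) or by limma-trend on log2(FPKM + 1) (0.25, adjusted p = 0.0554). Over the alternatives its adjusted p ran from 0.000507 to 0.176. All 7 neutrophil and all 6 monocyte and macrophage markers were also higher in the IsoL ears, with neutrophil sums of 439.9 to 581 CPM in the IsoL libraries, against 49.2 to 94.5 CPM in the Blank libraries. Endothelial markers were higher in 4 of 4 and mast cell and basophil markers in 5 of 5. Beside the lower Il6ra and Lifr, cartilage and skeletal muscle markers were lower in 3 of 3 each and nerve and Schwann cell markers in 3 of 4. Keratinocyte marker sums were 23366 to 26895 CPM in the IsoL libraries, against 15001 to 16036 CPM in the Blank libraries. The markers named above as reaching the filter in no Blank library gain no independent support from these counts. The part of these marker shifts was not tested.

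Il31ra did not pass the test between IsoL and Blank ears. Its levels were 0.51 to 0.86 FPKM in the IsoL libraries and 0.68 to 0.83 FPKM in the Blank libraries, with a log2 difference of -0.01 and a 95% interval of -0.35 to 0.34 (adjusted p = 0.973 by edgeR). Il31, the cytokine that binds this chain, was close to absent in ear RNA: 1 read in the 4 Model libraries and 0 in the IsoL and Blank libraries. A count of 0 allows up to 3 reads per group, for counting error only, so a difference in Il31 was not detectable at this depth.

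By FPKM, the order of the levels changed between the groups. In the IsoL ears Il6st led with 40.8 ± 1.73 FPKM, followed by Osmr (9.46 ± 0.191), Lifr (9.41 ± 0.785), Osm (8.04 ± 1.82) and Il6ra (7.82 ± 0.322), and the libraries of each of these last 4 overlapped with those of its neighbour in the order. In the Model ears Osm led with 68.0 ± 4.41 FPKM, followed by Il6st (55.0 ± 0.691), Osmr (13.6 ± 0.391), Il6 (12.2 ± 1.46) and Lifr (11.2 ± 0.457), where Il6 overlapped with both Osmr and Lifr. In the Blank ears Il6st led with 33.0 ± 0.902 FPKM, followed by Il6ra (15.965 ± 0.586) and Lifr (15.8 ± 0.285), which overlapped, and then by Osmr (5.53 ± 0.190). The 4 ligands were the lowest genes in the Blank ears, with Il31ra just above them.

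The summed FPKM of the 4 ligands was 12.9 ± 2.28 in the IsoL libraries, 84.1 ± 4.97 in the Model libraries and 1.11 ± 0.130 in the Blank libraries (SD, n = 4 each). Osm made up 62.1% ± 4.54 of that sum in the IsoL libraries, 80.8% ± 1.48 in the Model libraries and 19.6% ± 12.4 in the Blank libraries. In Blank ears the largest share was that of Il11, with 47.8% ± 4.07. The summed FPKM of the 5 receptor chains moved far less, with 68.1 ± 2.46 in the IsoL libraries, 90.3 ± 1.39 in the Model libraries and 71.1 ± 1.03 in the Blank libraries. FPKM carries no TMM factors, which were 0.931 to 0.969 in the IsoL and 1.075 to 1.083 in the Blank libraries. The small gap between the IsoL and Blank sums thus depends on the scaling.

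The balance of the chains was compared as ratios within a library, which do not depend on how libraries are scaled. Osmr over Lifr, the chains that partner gp130 for oncostatin M and for LIF, was 1.097, 1.07, 0.923 and 0.956 in the IsoL libraries, 1.18, 1.27, 1.22 and 1.21 in the Model libraries and 0.352, 0.346, 0.363 and 0.336 in the Blank libraries. By FPKM, Osmr thus lay near Lifr in the IsoL ears, above it in the Model ears, and far below it in the Blank ears. This order rests on annotated lengths of 12113 bases for Osmr and 10776 for Lifr. Comparisons of the ratio between groups do not depend on them. The ratio was 3.50-fold higher in the Model than in the Blank ears and 2.89-fold higher in the IsoL than in the Blank ears, and in the IsoL ears it was 0.826 times that of the Model ears.

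Il6ra over Il6st, the IL-6-binding chain over gp130, was 0.212, 0.192, 0.180 and 0.184 in the IsoL libraries, 0.162, 0.174, 0.171 and 0.172 in the Model libraries and 0.468, 0.456, 0.500 and 0.515 in the Blank libraries. It was 0.351 times the Blank ratio in the Model ears and 0.396 times the Blank ratio in the IsoL ears, and 1.13-fold higher in the IsoL than in the Model ears. In all 6 comparisons of the ratios the groups did not overlap, and an exact two-sided permutation test returned p = 0.0286 for each, which is the lowest value possible with groups of 4, and adjustment over the 6 left it there. Against the Blank ears this outcome was fixed in advance for both ratios. The upper gene was already known to differ one way, and the lower gene the other way, without overlap. Those tests thus add no support to the calls of the single genes.

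**Figure D3:**
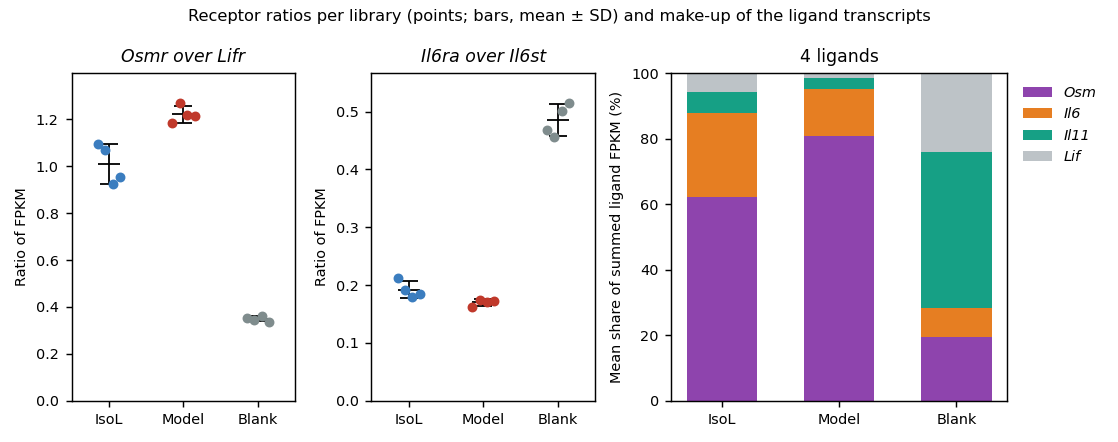
Left and middle, the FPKM ratios Osmr over Lifr and Il6ra over Il6st in each library (points) with mean ± SD (bars, n = 4); right, the mean share of Osm, Il6, Il11 and Lif in the summed ligand FPKM of each group. Osmr over Lifr is 0.336 to 0.363 in the Blank libraries and at least 0.923 in the others, and Osm makes up 80.8% of the ligand sum in the Model ears.

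The other genes of the pathway were counted in lists chosen with earlier results of these data known. Of all genes tested, 35.3% rose and 34.9% fell in Model against Blank, and 24.1% rose and 25.1% fell in IsoL against Model. In IsoL against Blank 36.5% rose and 34.0% fell, and the counts of these lists stand beside those shares. Among the 11 kinases and signal transducers, 8 rose in the Model against the Blank ears and none was called lower. That depended on the scaling: without scaling factors Tyk2 (-0.25, adjusted p = 0.000794), Gab1 (-0.21, adjusted p = 0.00099) and Ptpn11 (-0.14, adjusted p = 0.00724) were called lower, and all 3 were also called lower with quantile scaling. Jak2, a kinase bound to gp130, averaged 69.3 ± 4.42 FPKM in the Model libraries and 17.9 ± 0.947 FPKM in the Blank libraries (log2 2.09 ± 0.06). Stat3, the main transcription factor of the family, averaged 31.1 ± 0.593 FPKM in the Model libraries and 16.4 ± 0.791 FPKM in the Blank libraries (log2 1.06 ± 0.05). In the IsoL against the Model ears 8 of the 11 fell, led by Jak2 (log2 -1.06 ± 0.06), and 2 rose, the adaptor Gab1 (0.35 ± 0.05) and the phosphatase Ptpn11 (0.13 ± 0.04). Stat3 fell by 0.25 ± 0.05. In the IsoL against the Blank ears 6 rose, led by Jak2 (1.03 ± 0.06) and Stat3 (0.80 ± 0.05), and 2 fell, among them Tyk2 (-0.33 ± 0.06). The Ptpn11 calls against the Model and Blank ears also depended on the scaling: without scaling factors its log2 value was 0.079 in IsoL against Model (adjusted p = 0.136) and -0.057 in IsoL against Blank (adjusted p = 0.231), and without Model replicate 1 the first was 0.11 (adjusted p = 0.056).

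Feedback inhibitors followed a like course. Socs3, which binds gp130 and blocks its JAKs, averaged 76.1 ± 2.52 FPKM in the Model libraries and 9.20 ± 0.753 FPKM in the Blank libraries, a 9.10-fold rise (adjusted p = 2.06e-20 by edgeR). Socs1 rose by 2.46 ± 0.15 on the log2 scale and Pias3, an inhibitor of STAT3, fell by 0.997 ± 0.0691, and of the 6 inhibitors 4 rose and 1 fell. In the IsoL ears Socs3 averaged 25.5 ± 2.82 FPKM, 2.87-fold below the Model ears. There Socs1 fell by 1.14 ± 0.13, 4 of the 6 were lower and Pias3 was higher (0.25 ± 0.07). Against the Blank ears 5 of the 6 were higher in the IsoL ears, with Socs3 3.17-fold and Socs1 2.501-fold higher, and Pias3 fell by 0.75 ± 0.07.

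Genes known as STAT3 targets rose in 8 of 8 tested in the Model against the Blank ears, where 35.3% of all genes rose. Their median log2 change was 2.72, against -0.01 over all genes. Saa3 passed the filter through the Model and IsoL libraries alone, and the activity of STAT3 was not tested. The acute-phase gene Saa3 averaged 122.7 ± 8.45 FPKM in the Model libraries and 0.130 ± 0.0744 FPKM in the Blank libraries (log2 9.99 ± 0.14). Leaving out 1 library in turn gave log2 changes of 9.74 to 10.4. Timp1, an inhibitor of matrix metalloproteinases, averaged 200.7 ± 13.5 FPKM in the Model libraries and 9.12 ± 0.503 FPKM in the Blank libraries (log2 4.60 ± 0.11). In the IsoL against the Model ears 7 of the 8 fell, Saa3 by 1.80 ± 0.07 and Timp1 by 1.15 ± 0.08, where 25.1% of all genes fell. Pim1 was not called there (-0.13 ± 0.06, adjusted p = 0.0587 by edgeR). All 8 were higher in the IsoL than in the Blank ears, where 36.5% of all genes rose, with Saa3 up by 8.19 ± 0.15 and Timp1 by 3.44 ± 0.11.

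**Figure D4:**
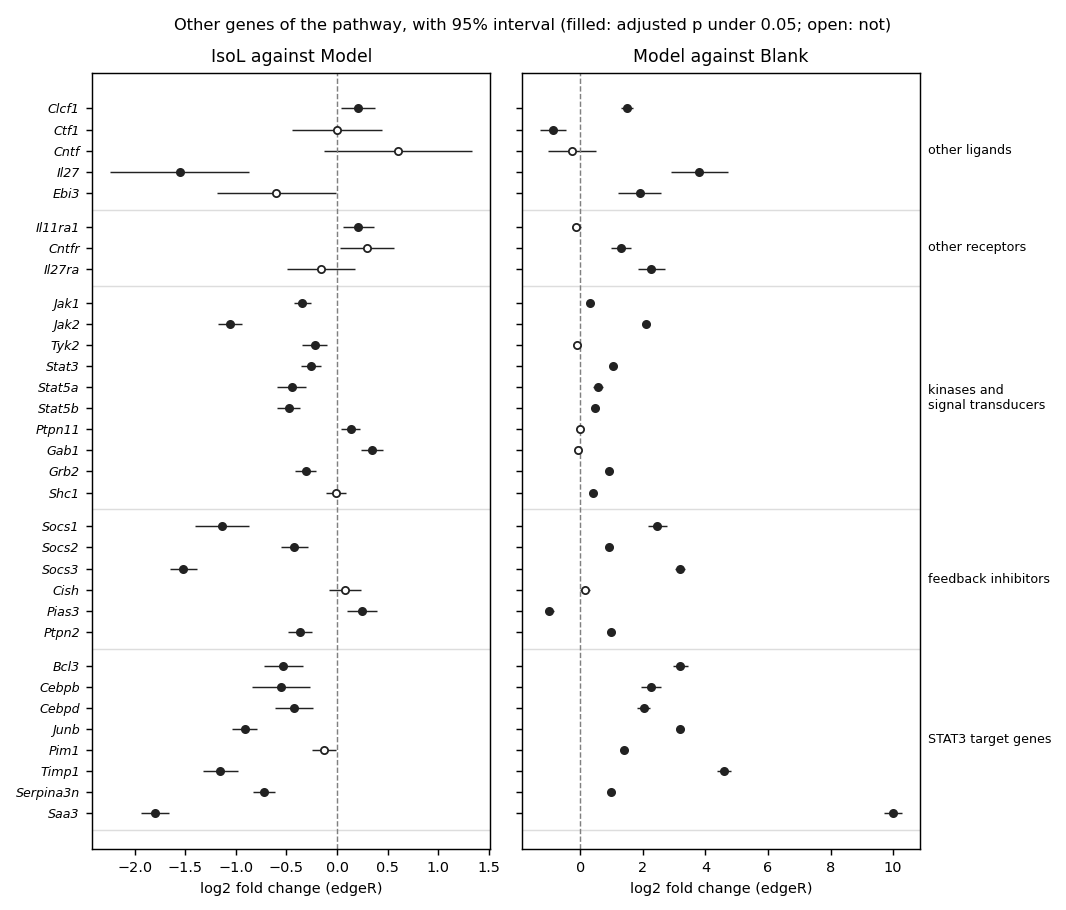
Fitted log2 fold change with 95% interval of other pathway genes that passed the filter, in IsoL against Model (left) and Model against Blank (right), on separate horizontal axes; filled points passed an adjusted p under 0.05. Saa3 lies farthest right in Model against Blank, at 9.99, and Pias3 and Ctf1 are the called genes drawn left of 0 there.

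Other ligands of the family went both ways. In the Model against the Blank ears Il27 (log2 3.80 ± 0.44) and Ebi3 (1.89 ± 0.33), the subunits of interleukin-27, rose, as did Clcf1 (1.49 ± 0.09), while Ctf1 (-0.86 ± 0.20), cardiotrophin-1, fell. Thus 3 of 6 tested were higher and 2 lower. Il27 passed the filter through the Model libraries alone, and Ebi3 reached it in no Blank library (at most 0.74 FPKM). The count is thus no independent support for these genes. Il27 stayed low, at 2.20 ± 0.674 FPKM in the Model libraries and 0.163 ± 0.130 FPKM in the Blank libraries. In the IsoL against the Model ears Il27 fell by 1.56 ± 0.33, Clcf1 was higher by 0.21 ± 0.08 and 4 were not called. The Clcf1 call was lost in 8 of 22 alternatives, among them without scaling factors (0.15, adjusted p = 0.131), without Model replicate 1, without Model replicate 3 and without IsoL replicate 1. In the IsoL against the Blank ears Il27 (2.25 ± 0.52), Clcf1 (1.70 ± 0.09) and Ebi3 were higher and Ctf1 (-0.87 ± 0.20) was lower.

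Of the 3 other receptors, Il27ra (2.27 ± 0.20) and Cntfr (1.30 ± 0.15), the receptor chains for interleukin-27 and ciliary neurotrophic factor, rose in the Model against the Blank ears. Il27ra reached the filter in no Blank library (at most 0.32 FPKM), so its call is no independent support. Il11ra1, the binding chain for interleukin-11, was not called there (-0.13 ± 0.07, adjusted p = 0.132 by edgeR), although it was called lower in 5 of 22 alternatives, among them without scaling factors (-0.26). In the IsoL against the Model ears Il11ra1 was higher by 0.21 ± 0.07 (adjusted p = 0.0223 by edgeR), a call lost in 7 of 22 alternatives, among them without Model replicate 2, without IsoL replicate 1 and without IsoL replicate 3 (0.14 to 0.18 without these libraries). Il27ra (2.12 ± 0.20) and Cntfr (1.60 ± 0.14) were also higher in the IsoL than in the Blank ears.

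The genes most like each member were found by the correlation of log2(CPM + 1) over the 12 libraries. The libraries fall into 3 groups that stand apart, so a high r says mainly that group levels follow the same order, and it is given as a description. For Osm the nearest were Cd14 (r = 0.999), a receptor of monocytes and macrophages, Havcr2 and Ccl3. For Il6 they were Trpm2 (r = 0.999), Lyn and Tlr13, and for Osmr they were Ednrb (r = 0.999), Pirb and Ms4a4a. Il6st was nearest to Cd38, Entpd1 and Ikzf1, and Il11 to Ms4a4d (r = 0.982), the neutrophil gene Retnlg and Dhx40.

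Il6ra was nearest to Ubp1 (r = 0.991), Abca3 and Mir8116, and Lifr to Primpol (r = 0.991), Pik3r1 and Nr3c1, the glucocorticoid receptor gene. Lif was nearest to Med15 (r = 0.985), Ostm1 and Il2ra, and Il31ra to P2ry10b (r = 0.976), Ranbp2 and Ep300. Within the family Il6 and Osmr were nearest to each other (r = 0.997), as were Il6ra and Lifr (r = 0.927). Il31ra had the weakest likeness to any other member, with r = 0.856 to Il11.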

How the data were processed

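Poly(A)-selected RNA from mouse ear was sequenced in 12 libraries, 4 per group. Reads were processed with fastp 0.22.0, HISAT2 2.1.0 and HTSeq 0.9.1, per the submitters' processing notes; neither the genome build nor the strand setting is stated there. The authors deposited 1 table with raw read counts per gene and FPKM values per library, and the deposited FPKM could be recomputed from the counts and gene lengths. No molecular identifiers were used, so counting intervals and floors cover counting error only.

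Counts were fitted with edgeR 4.0.16 (R 4.3.3; TMM scaling, quasi-likelihood test, the 3 groups in 1 fit) for 15403 genes whose FPKM reached 1 in 4 or more libraries, with Benjamini-Hochberg adjustment over all of them. They hold 99.2 to 99.4% of the counts. Genes were called at an adjusted p under 0.05. The script was tested on simulated data. Ratios of 2 members were compared on the log2 scale with an exact two-sided permutation test. The alternatives used DESeq2 1.42.0, limma 3.58.1, other scalings and filters, and each library left out in turn. Replicate numbers were not used to pair libraries.

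The members and all gene lists were chosen with earlier results of these data known. Besides every member, the genes named were the called genes with the 2 largest rises and falls of each list in each comparison, and for likeness the 3 nearest genes, leaving out predicted genes. Pim1 and, where they fall outside this rule, Stat3, Clcf1, Ebi3, Ptpn11, Tyk2, Gab1 and Il11ra1 were named after their values were seen. Of the genes this rule names, 2 are counted in their lists and not reported here. Promoter sequences are those of RefSeq (GRCm38.p6), matched by symbol for 8 of 9 members.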

Additional observations from a re-analysis of the deposited data

Results flagged for a closer look

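In 33 groups of 4 libraries, 2 had a library far from the other 3, where chance would mark about 1 in 20 groups. Osmr in the Blank ears had 63.9, 63.2, 63.8 and 59.4 CPM, and replicate 4 was the lowest, with a gap to its nearest neighbour of 0.851 of the group's range. Il11 in the Model ears had 5.10, 6.32, 6.31 and 6.23 CPM, and replicate 1 was the lowest, with a gap of 0.931 of the range and 69 reads, against 93 to 106 reads in the other Model libraries. Both genes were called without these libraries in the comparisons they enter.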

How the results depend on the processing

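Over 22 alternatives the numbers of genes called stayed within 1.5 times their main values: 10362 to 13282 in Model against Blank, 6899 to 8359 in IsoL against Model and 10426 to 12879 in IsoL against Blank. Of 594 values for the members, 591 kept their side of the threshold, 3 lost the call (Lif in IsoL against Model once, Il11 in IsoL against Blank in 2 settings) and none that was called reversed; Il31ra in IsoL against Blank was called in no setting, with values on both sides of 0 (-0.22 to 0.096). Same-numbered libraries did not deviate together (correlations of -0.0858 to 0.0612 over 12 pairs), so the numbers were not taken as pairs; with the replicate block 10737, 7482 and 10800 genes were called. For the ratios, an exact sign-flip permutation test with the replicate block cannot go below p = 0.125, and its log2 differences were 1.81, -0.28 and 1.53 for Osmr over Lifr and -1.51, 0.17 and -1.34 for Il6ra over Il6st in Model against Blank, IsoL against Model and IsoL against Blank. Ptpn11 reversed in Model against Blank (0.0028 with TMM scaling) to -0.14 without scaling factors, -0.16 with quantile scaling, -0.13 by limma-trend on log2(FPKM + 1) and -0.13 on log2(FPKM + 0.1). In IsoL against Blank (0.14) it reversed to -0.057 without scaling factors, and to -0.052 and -0.055 by limma-trend with the same 2 pseudocounts; the cause was not tested. Few reads limit Il31, Lif, Il11 and Il31ra, and the Blank levels of Osm and Il6.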
